A study of Mus musculus with 18 samples.

Results

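Interferon-stimulated genes are the genes that cells switch on when they sense interferon, and most of their products restrict viruses or tune the response itself. A list of 41 such mouse genes was followed across basophils and mast cells. A gene was taken when its symbol on the array platform equalled a listed name, and for the 3 genes with more than 1 probe the probe of highest mean intensity across the 18 arrays stood for the gene. Of the 41 genes, 37 were measured, among 19084 named genes on the array, and no filter on low values was applied to them. Ifit3, Oas1a, Trim30a and Ifi44 were not analysed here.

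Type I interferons act through a receptor whose kinases JAK1 and TYK2 phosphorylate STAT proteins, among them STAT2, which joins IRF9 in a complex that binds the interferon-stimulated response element of its target genes. One target, IRF7, is itself a transcription factor that amplifies interferon production, and another, USP18, removes ISG15 from proteins and damps the receptor. Cebpa encodes C/EBP alpha, a transcription factor of the granulocyte and monocyte lineages, and the study asked which genes depend on it in basophils and which genes separate basophils from mast cells.

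The 18 samples were C57Bl/6 mouse cells in 6 groups of 3 arrays, each array carrying RNA labelled with 1 dye. Fresh basophils were purified from bone marrow that was taken 3 days after an injection of IL-3 complexed with an antibody to it. Mast cells were grown from bone marrow for 4 weeks in IL-3 at 20 ng/ml. The other 4 groups were purified basophils kept for 5 days in IL-3 at 20 ng/ml, either Cebpa +/+ (wild type) or Cebpa f/f (floxed), and either without 4-hydroxytamoxifen or with it at 100 nM for the same 5 days. All 4 cultured groups carried RosaYFP/creER, so the wild type cells with the drug had both the drug and the Cre recombinase that it activates. The sources used here do not give the promoter that drives creER, the genotype of the fresh basophils and mast cells beyond their strain, or the age of the mice. Whether the 3 samples of a group are separate mice or cultures is not labelled, and p-values therefore measure only the spread among these samples, which could be technical.

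All intensities below were quantile normalized over the 18 arrays, and each difference is a log2 difference of (intensity + 16) with its standard error, from 1 limma fit over all arrays (n = 3 per group). A difference passed the test at a Benjamini-Hochberg adjusted p below 0.05 over 26423 probes. The deposited median intensity was 24 to 42 per array, replicate arrays had Pearson's r of at least 0.9897 across probes, and the number of arrays limits the precision. A probe whose deposited intensity stayed under 30 throughout a group was treated as at background there, and its fold is then given as a lower bound. The limit of 30 was set with the data in view. Such a bound is a ratio of mean intensities without the offset of 16, with values below 30 in the background group raised to 30. It can therefore exceed the fold that the log2 difference gives. The 6 basophil markers summed to 93548 to 102421 in floxed cells with the drug, 106402 to 132190 in the other basophil groups and 30669 to 31535 in mast cells. Prss34 and Itga2 were lower in floxed than in wild type cells with the drug and no basophil marker was higher. Without it only Il4 passed, and it was higher. The 5 measured mast cell markers summed to 134228 to 137635 in mast cells and 63036 to 66083 in fresh basophils.

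The deleted gene was read first. Cebpa had intensities of 2280.2, 2602 and 2226 in wild type cells without the drug and 2973, 2822 and 2539 with it (0.23 ± 0.11, adjusted p = 0.161). In floxed cells it was at 1055, 935 and 959 without the drug and at 69.1, 69.4 and 57.8 with it. The floxed cells without the drug were thus already below every wild type array (2.39-fold lower, -1.25 ± 0.11, adjusted p = 3.84e-07), and those with the drug were 34.3-fold lower than their wild type counterpart (-5.10 ± 0.11, adjusted p = 8.98e-15). Fresh basophils stood at 2232, 2393 and 2105 and mast cells at 56.8, 63.8 and 45.7.

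Promoter windows from RefSeq (build GRCm38.p6, 250 bases before to 50 after each gene's start) were available for 25 of the 37 genes. A core of the response element, GAAANNGAAA read on both strands, lay in 10 of the 32 windows of these 25 genes (31.25%) and in 1131 of 32851 windows of all genes (3.443%). These stretches are shown because they hold that core upstream of the start in 7 of the 10 genes, among them both ends of the range described below: Ifit1, which fell the most, and Oas3, which was higher in floxed cells with the drug. Each is written 5′ to 3′ on the gene's own strand, with the core in capitals, as its reverse complement where it lies on the other strand, and overlapping cores run together.
Ifit1, chr19:34640779-34640838, plus strand: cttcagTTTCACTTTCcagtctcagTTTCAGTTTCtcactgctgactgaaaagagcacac
Isg15, chr4:156200850-156200909, minus strand: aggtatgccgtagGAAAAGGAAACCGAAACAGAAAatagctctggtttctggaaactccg
Rsad2, chr12:26456538-26456597, minus strand: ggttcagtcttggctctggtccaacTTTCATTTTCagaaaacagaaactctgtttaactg
Bst2, chr8:71537562-71537621, minus strand: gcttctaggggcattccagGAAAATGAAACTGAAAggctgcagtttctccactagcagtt
Stat2, chr10:128270251-128270310, plus strand: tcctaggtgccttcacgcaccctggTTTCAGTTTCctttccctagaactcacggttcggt
Cxcl10, chr5:92349068-92349127, minus strand: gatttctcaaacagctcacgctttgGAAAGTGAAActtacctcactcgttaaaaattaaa
Oas3, chr5:120777700-120777759, minus strand: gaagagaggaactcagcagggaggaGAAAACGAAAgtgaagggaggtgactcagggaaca

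Ddx58, Eif2ak2 and Ifih1 held the core across or after the start and are not shown. A gamma-activated site, TTCNNNGAA, lay in 6 of the 32 windows (18.75%) against 8.298% of all windows, and overlapped the response element in 1 of them. A C/EBP core, TTGCNNAA, lay in 2 of the 32 windows (6.25%), both of Sp100, against 10.797% of all windows. A match is a description of the letters and not of binding.

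**Figure D1:**
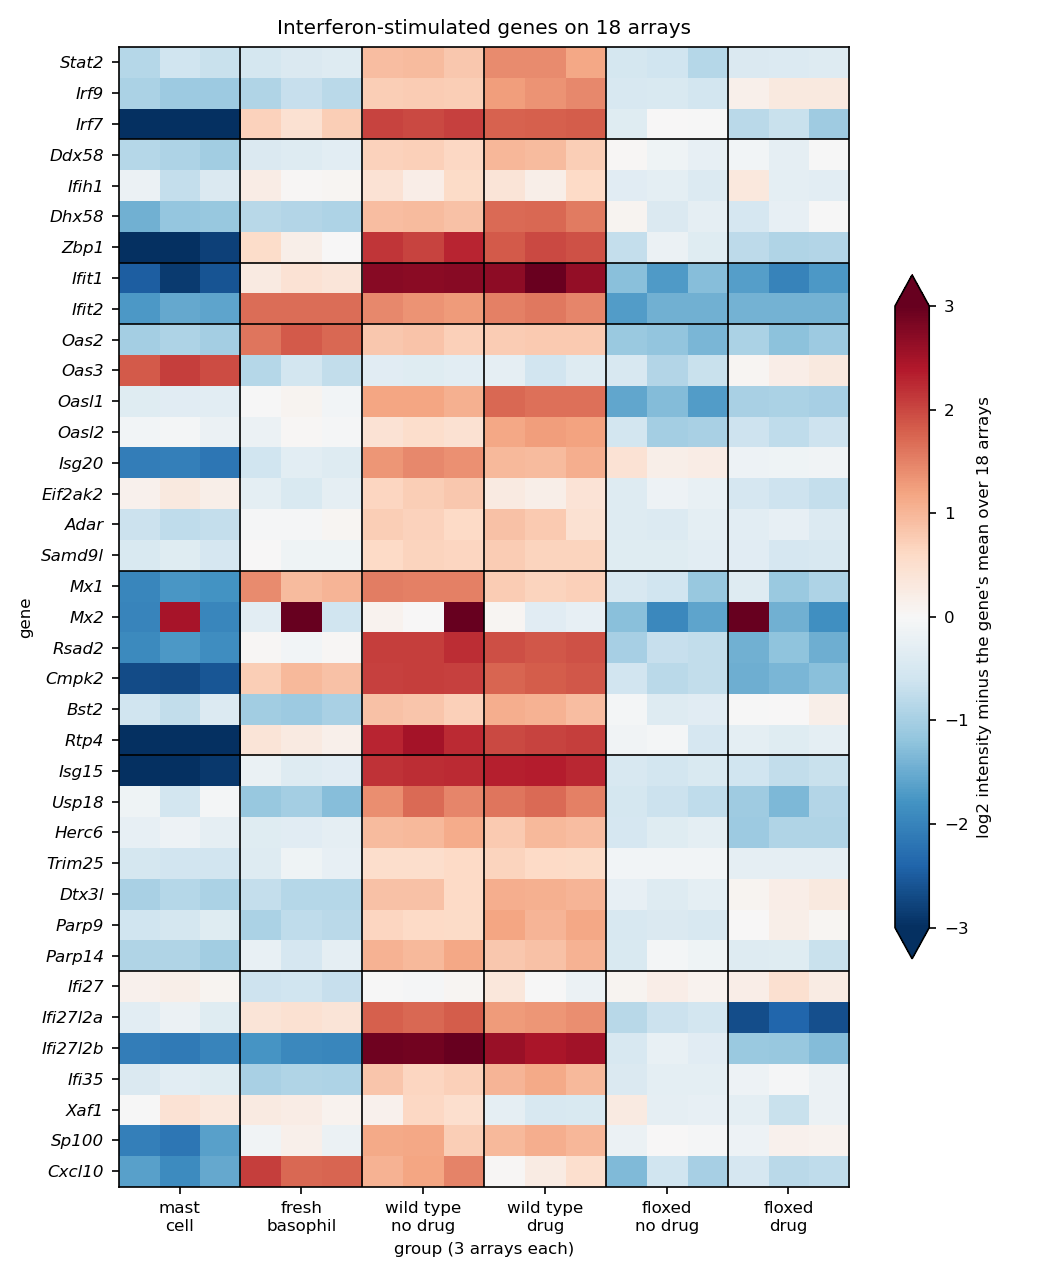
Each of the 37 measured genes (rows, in blocks by role) on each of the 18 arrays (columns, 3 per group), coloured by its log2 intensity minus its own mean over the arrays, with colours limited to 3 log2 units either way. The 6 arrays of cultured wild type basophils are the reddest columns, and Oas3 and Mx2 stand apart from the other rows.

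Levels were highest in cultured wild type basophils. The group mean was at its highest in wild type cells with the drug for 16 of the 37 genes, in wild type cells without it for another 16, in fresh basophils for 3 (Ifit2, Oas2 and Cxcl10), in mast cells for Oas3 and in floxed cells with the drug for Ifi27. It was at its lowest in mast cells for 22 genes, in fresh basophils for 6 and in the 2 floxed groups for 4 each, the remaining gene being Xaf1, lowest in wild type cells with the drug. The median over the 37 genes of the log2 distance from each gene's own mean was 0.88 to 1.08 on the 6 wild type arrays, -0.24 to -0.13 on the 3 fresh basophil arrays, -0.62 to -0.40 on the 6 floxed arrays and -1.01 to -0.86 on the 3 mast cell arrays. These ranges did not overlap between the 4 kinds of cells. In mast cells Ifih1, Zbp1, Ifit1, Mx1, Sp100 and Cxcl10 were at background on all 3 arrays.

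With the drug, 33 of the 37 interferon-stimulated genes were lower in floxed than in wild type basophils, and Oas3 alone was higher. Of all 26423 probes, 14.9% were called lower and 15.9% higher in this comparison, and of the 9455 probes with a mean of at least 100, 27.1% and 31%. The median difference was -1.39 over the 37 genes and 0.00 over all probes, and 26 genes were at least 2-fold lower. On 32 of the 37 genes no floxed array reached the lowest wild type array, against 20.2% of all probes. Mx2, Ifi27 and Xaf1 did not pass.

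The largest falls were those of Ifit1, Ifi27l2a and Ifi27l2b. Ifit1, whose product binds viral RNA that lacks the host cap modification, read 1193, 1463 and 1145 in wild type cells and 43.7, 31.3 and 41.4 in floxed cells. Its floxed arrays were all close to background, and it was 23.4-fold lower (-4.55 ± 0.14, adjusted p = 3.05e-13), the fifth-lowest log2 difference among all probes. Ifit2, a relative, read 541, 569 and 522 against 56.3, 56.3 and 56.9. Both genes were thus well apart in every array, with Ifit2 7.72-fold lower (-2.95 ± 0.083, adjusted p = 1.42e-13).

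Ifi27l2a, of the IFI27 family of small membrane proteins, read 6171, 6327 and 6589 in wild type and 387, 468 and 390.1 in floxed cells (14.8-fold lower, -3.89 ± 0.093, adjusted p = 3.37e-14). For Ifi27l2b the arrays gave 3303, 2983 and 3122 against 238, 236 and 207 (13.0-fold lower, -3.70 ± 0.094, adjusted p = 5.74e-14). The family did not move as a block. Ifi27, next to both in the RefSeq gene order on chromosome 12, read 10095, 7908 and 7088 in wild type and 9156, 11112 and 9473 in floxed cells, groups that overlapped (0.26 ± 0.11, adjusted p = 0.0986).

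Rsad2 and Cmpk2 are neighbours on chromosome 12; Rsad2 encodes viperin, which makes a chain-terminating nucleotide, and Cmpk2 a mitochondrial nucleotide kinase. Rsad2 read 4377, 4171 and 4265 against 407, 477 and 399.6 (9.69-fold lower, -3.28 ± 0.10, adjusted p = 2.09e-13), and Cmpk2 read 3856, 4040.4 and 4163 against 405, 432 and 469 (8.95-fold lower, -3.16 ± 0.088, adjusted p = 1.37e-13). Neither overlapped between the groups. Of the other membrane and organelle effectors, Rtp4 (-2.35), the GTPase Mx1 (-1.53) and the virion tether Bst2 (-0.95) were also lower.

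All 7 measured genes of the ISG15 and ubiquitin pathway were lower. Isg15, the ubiquitin-like modifier, read 3244, 3336 and 3108 in wild type and 416, 377 and 396 in floxed cells (7.88-fold lower, -2.98 ± 0.085, adjusted p = 1.63e-13). Usp18, its protease, read 1655, 1777 and 1561 against 247, 202 and 283 (6.51-fold lower, -2.70 ± 0.14, adjusted p = 1.99e-10). The modifier and the enzyme that removes it therefore had floxed arrays far below all wild type arrays. The ligase Herc6 (-1.85), Parp14 (-1.39), Parp9 (-1.03), its partner Dtx3l (-0.85) and the RIG-I ligase Trim25 (-0.87) fell less.

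The 3 measured transcription factors of the response were lower as well. Irf7 read 9071, 9148 and 9362 in wild type and 1508, 1657 and 1249.8 in floxed cells (6.23-fold lower, -2.64 ± 0.12, adjusted p = 4.14e-11). Stat2 read 894, 896 and 755 against 239, 239.6 and 247 (3.34-fold lower, -1.74 ± 0.10, adjusted p = 1.06e-09), and Irf9 1738, 1859 and 1984 against 799.5, 884 and 878 (2.16-fold lower, -1.11 ± 0.082, adjusted p = 1.90e-08). None of the 3 overlapped between the groups.

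Among the sensors, Zbp1, which detects Z-form nucleic acid, read 561, 613 and 592 against 76.9, 70.3 and 71.3 (6.81-fold lower, -2.77 ± 0.15, adjusted p = 4.01e-10). The RIG-I-like receptors Dhx58 (-1.92) and Ddx58 (-1.03) fell as well. Ifih1, which encodes MDA5, was dim throughout at 25.3, 19.4 and 31.4 against 23.4, 9.89 and 9.28; its floxed arrays were at background and the groups overlapped, so no fold is given (adjusted p = 0.0425). That call held in 7 of 14 other settings and was lost without replicate 1 or 3 of wild type or replicate 2 or 3 of floxed cells with the drug (highest adjusted p = 0.174).

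Of the 8 measured oligoadenylate synthetases and RNA effectors, 7 were lower and 1 was higher. Oasl1, known for holding back IRF7 translation, read 542, 515 and 515 against 70.0, 71.2 and 68.7 (6.28-fold lower, -2.65 ± 0.091, adjusted p = 1.35e-12). The others that fell were Oasl2 (-1.88), Oas2 (-1.87), Samd9l (-1.14), the exonuclease Isg20 (-1.13), the RNA editor Adar (-1.03) and the kinase PKR gene Eif2ak2 (-0.90). Oas3, the neighbour of Oas2 on chromosome 5, went the other way, at 151, 120.2 and 139 in wild type and 196, 217 and 231 in floxed cells (1.51-fold higher, 0.60 ± 0.12, adjusted p = 0.000637). Its lowest floxed array was above its highest wild type array. Ifi35 (-1.16), the nuclear body gene Sp100 (1.99-fold lower) and the chemokine Cxcl10 (-0.96) complete the list of genes that fell.

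**Figure D2:**
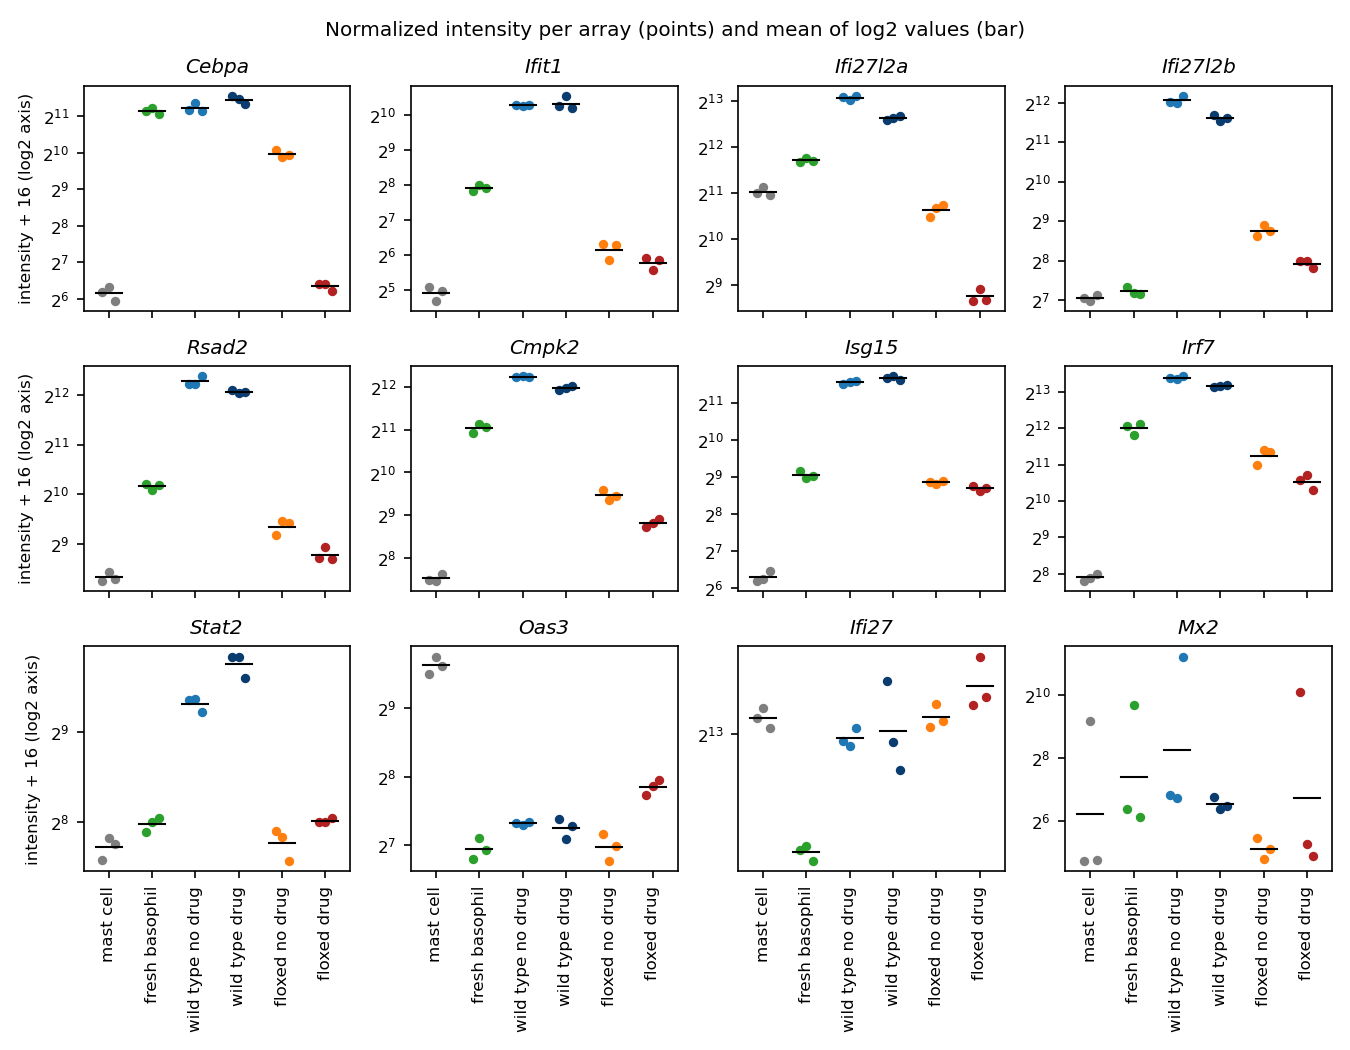
Normalized intensity plus 16 on a log2 axis for Cebpa and 11 interferon-stimulated genes, with a point per array and a bar at the mean of the log2 values of each group (3 arrays). Ifit1, Isg15 and Irf7 are highest in both wild type groups, Oas3 is highest in mast cells, and 4 single arrays of Mx2 lie far above the other arrays of their groups.

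The same direction was seen without the drug, where Cebpa itself was 2.39-fold lower in floxed cells. Here 33 of the 37 genes were lower and none was higher by limma, against 7.27% of all probes lower and 8.54% higher. At an unadjusted p below 0.05 the number of higher genes was also 0. Among the 9455 brighter probes 14.5% were lower and 17.3% higher. The median difference was -1.31 over the genes and 0.00 over all probes, and 28 genes were at least 2-fold lower. On 35 genes (34 without Mx2) no floxed array reached the lowest wild type array, against 14.9% of all probes. Oas3 (-0.34 ± 0.12, adjusted p = 0.0592), Xaf1 (-0.49 ± 0.17, adjusted p = 0.0599), Ifi27 (0.12 ± 0.11, adjusted p = 0.566) and Mx2 did not pass. In 6 of 14 other settings Oas3 passed as lower.

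Ifit1 was again the lowest, at 1231, 1210.2 and 1227 in wild type and 63.2, 42.2 and 61.6 in floxed cells (17.4-fold lower, -4.12 ± 0.14, adjusted p = 4.29e-12), the second-lowest log2 difference of all probes. Ifi27l2b followed, with 4167, 4082 and 4601 against 378, 460.4 and 418 (9.90-fold lower, -3.31 ± 0.094, adjusted p = 1.11e-12). Rsad2 read 4782, 4772 and 5293 against 561, 693 and 668 (7.58-fold lower, -2.92 ± 0.10, adjusted p = 4.29e-12). Each of these genes had its 3 floxed arrays far below its 3 wild type arrays.

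Ifit2, the fourth, read 513, 479 and 457 against 44.8, 55.4 and 55.4 (7.37-fold lower, -2.88 ± 0.083, adjusted p = 1.11e-12). The transcription factors fell here too, by 2.14 on the log2 scale for Irf7, whose arrays read 10798, 10427 and 11032 in wild type and 2042, 2683 and 2603 in floxed cells. Stat2 read 636, 643 and 580.3 against 222, 211 and 173 (-1.55 ± 0.10) and Irf9 1212, 1239.6 and 1207 against 512, 519 and 486 (-1.24 ± 0.082). No array of these genes overlapped between the genotypes. Mx1 was at background in floxed cells without the drug and was at least 5.63-fold lower there, and Oasl1 differed by as much as with the drug (-2.65 ± 0.091).

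The 2 genotype comparisons share no array. The same 33 genes were lower in both, as were 1319 of all 26423 probes. Across the 37 genes the 2 log2 differences had a Pearson's r of 0.80 and a Spearman's rho of 0.78, and 0.92 and 0.90 over the 36 genes without Mx2, against 0.56 and 0.43 across all probes. These are descriptions across genes, which are not independent replicates and which share dyes, normalization and probes. Of the 100 probes with the lowest log2 difference, 12 were interferon-stimulated genes with the drug and 16 without it, and of the 100 highest none.

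**Figure D3:**
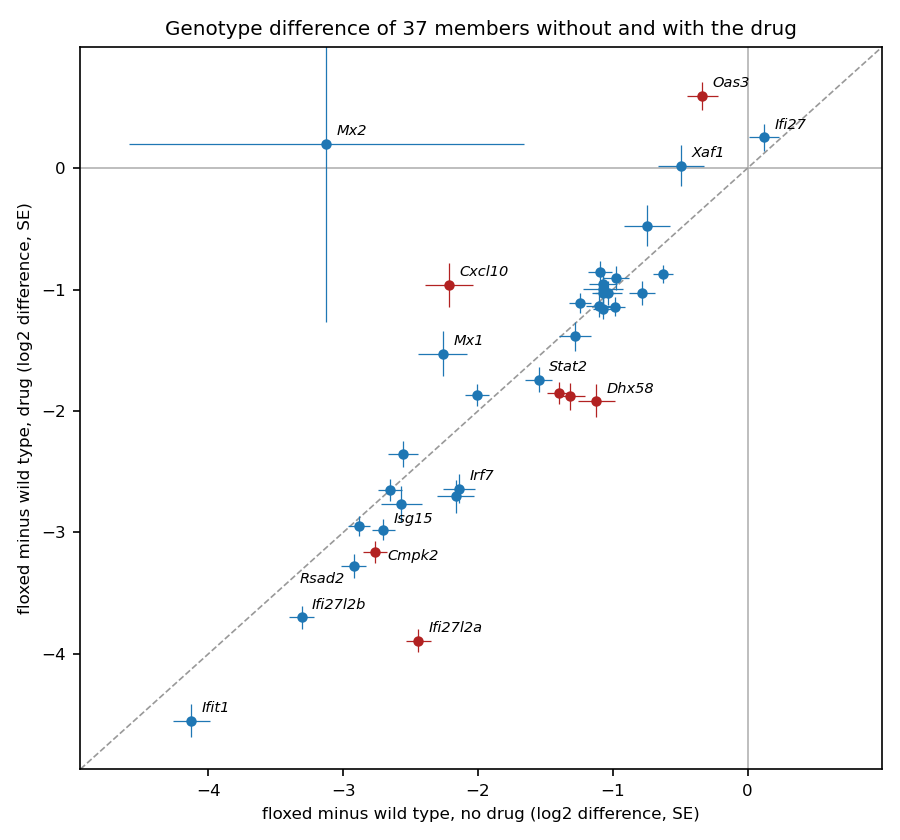
Floxed minus wild type log2 difference of each of the 37 genes without the drug (horizontal) and with it (vertical), with standard errors and a dashed line of equal difference; genes in red passed the test of the interaction of genotype and drug. Most genes lie near the line between 0 and -3, Ifi27l2a, Cxcl10 and Oas3 lie off it, and the error bar of Mx2 runs past the frame.

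The genotype difference was not the same with and without the drug for 7 genes. The test of that change, the interaction, called 2 of the 37 genes higher (6.17% of all probes) and 5 lower (6.46%), with a median of -0.07 over the genes and -0.01 over all probes. Of the 9455 brighter probes 13.1% were higher and 14% lower, and 35 of the 37 genes are among these, so the number of genes called is not above the background. Ifi27l2a had the largest change (-1.45 ± 0.13, adjusted p = 1.25e-06): with the drug it went from 1408, 1612 and 1709 to 387, 468 and 390.1 in floxed cells and from 8709, 8293 and 8848 to 6171, 6327 and 6589 in wild type cells. Every drug array lay below every array without it in both genotypes. Cxcl10, a T cell chemoattractant, read 198, 221 and 279 in wild type and 25.5, 53.2 and 36.1 in floxed cells without the drug, and 90.9, 108 and 133 and 57.4, 43.8 and 45.5 with it. Its genotype gap was thus narrower with the drug, by 1.25 ± 0.26 (adjusted p = 0.0033), and was -2.22 without it and -0.96 with it.

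Oas3 read 144, 141 and 146 in wild type and 128, 93.2 and 112 in floxed cells without the drug, and its genotype difference changed with the drug (0.93 ± 0.16, adjusted p = 0.000921). Dhx58, the RIG-I-like receptor LGP2, read 643, 655 and 621 and 352, 241 and 273 without the drug and 1111, 1132 and 1005 and 229, 277 and 326 with it (-0.79 ± 0.19, adjusted p = 0.0105). Only in wild type cells did the drug groups of Dhx58 lie apart. Oasl2 (-0.57, adjusted p = 0.0217), Herc6 (-0.45, adjusted p = 0.0235) and Cmpk2 (-0.40, adjusted p = 0.0443) also passed. Over 20 other settings, Ifi27l2a, Cxcl10 and Oas3 passed in all 20, Dhx58 in 18, Oasl2 in 14, Herc6 in 10 and Cmpk2 in 5 (highest adjusted p = 0.217, 0.530, 0.934 and 0.974 for the last 4). The split of 2 higher and 5 lower became 2 and 2 with median scaling, 4 and 1 without normalization between arrays, and 5 and 1 when arrays were scaled on probes above background. The 5 lower genes became 2 without replicate 2 of wild type with the drug, and 3 without replicate 1 or 2 of wild type without the drug, replicate 1 of floxed with it or replicate 3 of floxed without it.

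In wild type cells the drug, together with active Cre, raised 7 of the 37 genes and lowered 7, against 11.2% of all probes higher and 10.1% lower, with a median of 0.01 over the genes and over all probes. Of the brighter probes 22.7% were higher and 21.5% lower, so neither count is above the background. The genes that rose were Oasl2, Dhx58, Irf9, Oasl1, Parp9, Stat2 and Ifi35, and those that fell were Cxcl10, Xaf1, Mx1, Ifi27l2b, Ifi27l2a, Eif2ak2 and Isg20. All differences were below 2-fold. The split of 7 and 7 became 6 and 4 with median scaling, 4 and 15 without normalization between arrays, and 2 and 18 when arrays were scaled on probes above background, where Ifi35 changed sign. The balance of directions thus depends on how the arrays are put on one scale.

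Cxcl10 had the largest difference of these (1.96-fold lower, -0.97 ± 0.18, adjusted p = 0.000893), on the values given above. Xaf1, a proapoptotic gene, went from 136, 196 and 180.4 to 98.5, 83.8 and 85.2 (-0.82 ± 0.17, adjusted p = 0.00205), and Mx1 from 171, 169 and 167 to 93.8, 85.9 and 89.9 (-0.80 ± 0.18, adjusted p = 0.0039). Both lay wholly lower with the drug. Oasl2 went from 255, 272 and 258 to 434, 467 and 451 (0.75 ± 0.11, adjusted p = 9.68e-05), wholly higher.

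In floxed cells, where the drug lowered Cebpa 12.3-fold, it raised 6 genes and lowered 10, against 9.92% of all probes higher and 9.67% lower and 19.7% and 20% of the brighter ones, with a median of -0.05. With median scaling the split was 3 and 8. The genes that rose were Oas3, Irf9, Parp9, Oasl1, Dtx3l and Bst2, and those that fell were Ifi27l2a, Ifi27l2b, Irf7, Cmpk2, Herc6, Rsad2, Usp18, Zbp1, Isg20 and Eif2ak2. The call of Zbp1 held in 4 of 14 other settings, that of Bst2 in 5 and that of Usp18 in 6 (highest adjusted p = 0.204, 0.879 and 0.154).

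Ifi27l2a fell the most (3.70-fold lower, -1.89 ± 0.093, adjusted p = 2.65e-10), and it was the only one of the 16 past 2-fold. Oas3 rose (0.87 ± 0.12, adjusted p = 3.32e-05) and Ifi27l2b fell from 378, 460.4 and 418 to 238, 236 and 207 (-0.84 ± 0.094, adjusted p = 4.89e-06). Irf9 went from 512, 519 and 486 to 799.5, 884 and 878 (0.74 ± 0.082, adjusted p = 4.86e-06), and it rose in wild type cells as well (0.60 ± 0.082). Ifit1, the gene with the largest genotype difference, did not pass for the drug in wild type (0.04 ± 0.14, adjusted p = 0.886) or in floxed cells (-0.38 ± 0.14, adjusted p = 0.0626).

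**Figure D4:**
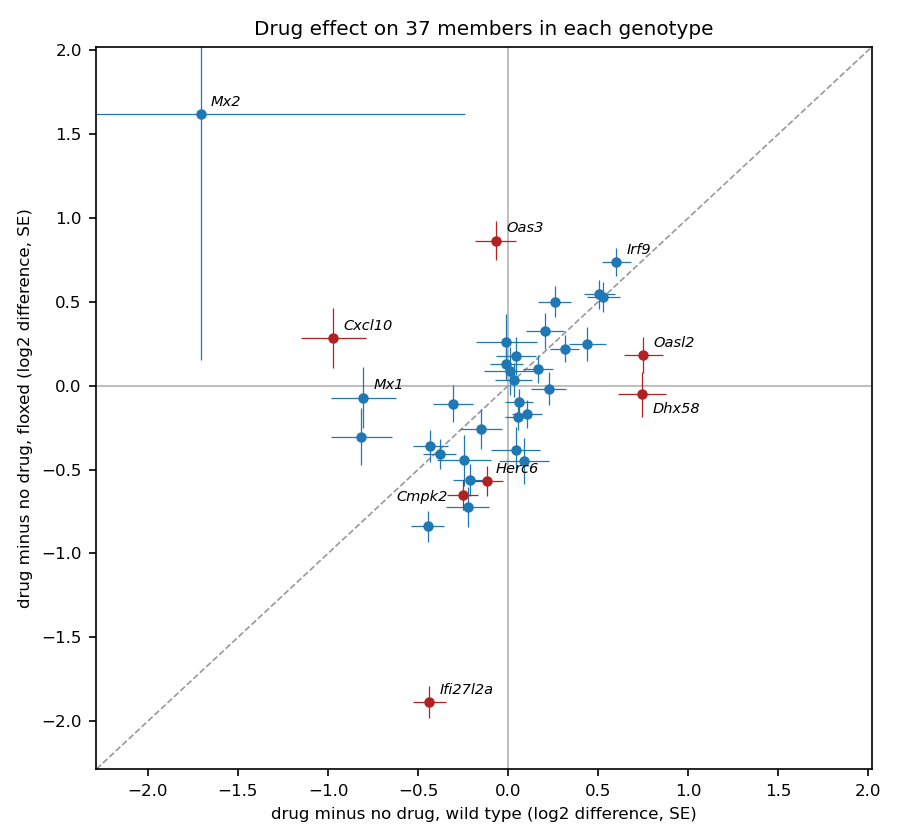
Drug minus no drug log2 difference of each of the 37 genes in wild type cells (horizontal) and in floxed cells (vertical), with standard errors and a dashed line of equal difference; genes in red passed the test of the interaction. Most genes lie within 1 log2 unit of 0 on both axes, Ifi27l2a lies below -1.5 in floxed cells, and the error bars of Mx2 run past the frame.

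Fresh basophils were compared with mast cells, and cultured wild type basophils without the drug with each of them; the comparisons share these arrays pairwise. Against mast cells, 23 of the 37 genes were higher in fresh basophils and 7 lower, against 18.3% of all probes higher and 22.3% lower and 31.8% and 36.2% of the brighter ones, with a median of 0.55 over the genes and -0.04 over all probes. The middle gene was Ifih1, which was at background in mast cells. The lower genes were Oas3, Usp18, Ifi27, Ifi35, Eif2ak2, Bst2 and Parp9, and of these Oas3, Usp18 and Ifi27 were still called without normalization between arrays, where the split became 28 higher and 3 lower and Parp9 changed sign. With median scaling the split was 21 and 6, and when arrays were scaled on probes above background it was 26 and 3. Stat2, Oasl2, Herc6, Dtx3l, Ifi27l2b, Xaf1 and Mx2 did not pass.

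Rtp4, a chaperone of membrane receptors, read 2430.0, 2235 and 2069 in fresh basophils and 101, 87.6 and 94.5 in mast cells (20.5-fold higher, 4.36 ± 0.11, adjusted p = 3.01e-15). Irf7 read 4288, 3612 and 4419.8 against 207, 222 and 240.3 (17.2-fold higher, 4.10 ± 0.12, adjusted p = 1.82e-14), and Cmpk2 1929.8, 2248 and 2126 against 163, 161 and 181 (11.5-fold higher, 3.52 ± 0.088). All 3 were far above mast cells on every fresh basophil array. Ifit2 read 606, 602 and 603 against 43.4, 50.8 and 49.4 (9.71-fold higher, 3.28 ± 0.083). Cxcl10 read 422, 330.1 and 337 against background levels of 18, 12.1 and 20.3 (at least 12.1-fold higher, adjusted p = 3.97e-11), and Zbp1 219.9, 165 and 145 against 1.5, 2.11 and 7.22 (at least 5.89-fold higher, adjusted p = 8.26e-12).

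Irf9 and Stat2 lay closer together in the 2 cell types. Irf9 read 378, 441 and 401 in fresh basophils and 363, 331 and 327 in mast cells (0.24 ± 0.082, adjusted p = 0.0247), a call that held in 8 of 14 other settings (highest adjusted p = 0.122). Stat2 read 221, 239 and 247 against 174, 209.9 and 199, higher on each fresh array but not past the test (0.26 ± 0.10, adjusted p = 0.0541); it passed in 6 of 14 other settings. Oas3 was the reverse of its family, at 95.8, 122 and 106 in fresh basophils and 703, 839.6 and 766 in mast cells (6.35-fold lower, -2.67 ± 0.12, adjusted p = 3.72e-12), while Oas2 read 386, 453 and 422 against 49.4, 53.1 and 49.4 (6.54-fold higher).

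Cultured wild type basophils had higher levels than fresh ones for most genes. Fresh basophils were lower in 30 of the 37 genes and higher in 3, against 17.3% of all probes lower and 17.6% higher and 33.9% and 31.5% of the brighter ones, with a median of -1.34 over the genes and -0.01 over all probes, and 24 genes were at least 2-fold lower. The 3 higher genes were Oas2 (0.93 ± 0.090), Cxcl10 (0.61 ± 0.18) and Ifit2 (0.31 ± 0.083). The call of Cxcl10 was lost without replicate 1 of fresh basophils or of cultured cells (highest adjusted p = 0.0689). Ifih1, Mx1, Mx2 and Xaf1 did not pass.

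Ifi27l2b differed the most of the 37, at 146, 129 and 127 in fresh basophils, near the 115, 110.3 and 124 of mast cells, and at 4167, 4082 and 4601 in cultured cells (28.7-fold lower in fresh cells, -4.84 ± 0.094, adjusted p = 4.62e-16). Usp18 read 236, 253 and 212 against 1435, 1780.3 and 1493 (6.34-fold lower, -2.66 ± 0.14, adjusted p = 9.00e-11), and Isg15 553, 479.8 and 501 against 2914, 3013 and 3084 (5.73-fold lower, -2.52 ± 0.085, adjusted p = 3.66e-13). The fresh arrays of these genes were all below the cultured ones. Ifit1 read 212, 240.2 and 224 in fresh cells (5.14-fold lower, -2.36 ± 0.14, adjusted p = 3.48e-10), Rsad2 1161, 1069 and 1155 (4.34-fold lower, -2.12 ± 0.10), and Rtp4 was 4.21-fold lower (-2.07 ± 0.11) against its 9184, 10532 and 8792 in cultured cells.

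Between cultured wild type basophils and mast cells, both grown in IL-3, 33 of the 37 genes were higher in the basophils and Oas3 was lower, against 16.9% of all probes higher and 22.3% lower and 31.3% and 37.8% of the brighter ones, with a median of 1.77 over the genes and -0.04 over all probes. Rtp4 was 86.1-fold higher (6.43 ± 0.11, adjusted p = 3.14e-17), Irf7 45.1-fold (5.49 ± 0.12, adjusted p = 5.07e-16) and Isg15 38.6-fold (5.27 ± 0.085, adjusted p = 1.48e-17), the last on mast cell values of 56.8, 59.0 and 71.2. The dimmer Rtp4 probe differed by 2.07 in this comparison. Ifit1, at background in mast cells (18, 9.83 and 15.2), was at least 40.8-fold higher (adjusted p = 3.84e-15). The mast cell arrays of these 4 genes were the lowest of all 18. Oas3 was 4.91-fold lower in the basophils (-2.30 ± 0.12, adjusted p = 3.16e-11), and Ifi27, Xaf1 and Mx2 did not pass.

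**Figure D5:**
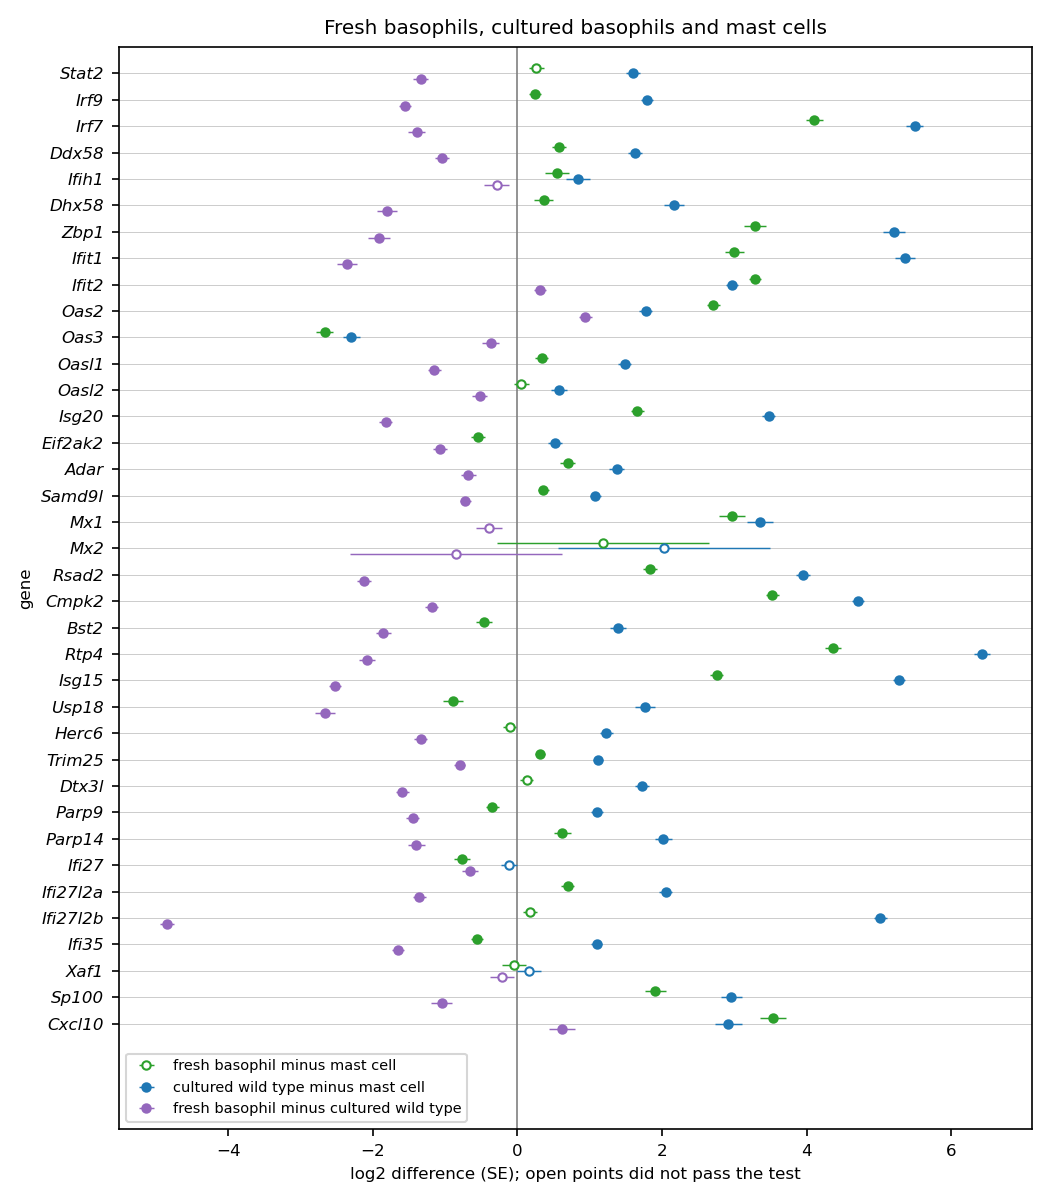
Log2 difference (points) and standard error (lines) of each of the 37 genes between fresh basophils and mast cells (green), cultured wild type basophils without the drug and mast cells (blue), and fresh and cultured wild type basophils (purple); open points did not pass the test. Blue points lie right of 0 for all genes but Oas3 and Ifi27, and purple points lie left of 0 for all but Ifit2, Oas2 and Cxcl10.

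Mx2 was not usable in any comparison. Its probe read 10.6, 568 and 10.9 in mast cells, 68.1, 813 and 53.6 in fresh basophils, 96.8, 90.3 and 2364 in wild type cells without the drug and 1074, 22.6 and 13.6 in floxed cells with it. In each of these groups a single array was far brighter than the other two, while wild type cells with the drug read 93.8, 67.6 and 73.2 and floxed cells without it 28.2, 11.8 and 18.9. No difference of Mx2 passed the test. Of the genes with several probes, the dimmer Rtp4 probe was lower in floxed cells too (-2.04 with the drug and -1.69 without). The dimmer Herc6 probe, at a mean of 13.2, was at -0.38 and -0.79, and the Isg20 probe of middle brightness, at a mean of 115, at -0.31 (adjusted p = 0.121) and -0.55. Between fresh basophils and mast cells the probes disagreed: Rtp4 was at 4.36 on the probe used and 0.37 on the dimmer one, and Isg20 at 1.66 and -0.40. Probe sequences were not used here, so signal shared between close relatives such as Ifi27l2a and Ifi27l2b was not tested.

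Interferons themselves were hardly detected. Of 21 listed interferon genes 6 were measured, and 0 of the 6 passed between the genotypes with or without the drug by limma, also 0 at an unadjusted p below 0.05. The highest deposited intensity on any array was 43 for Ifnb1 and 44 for Ifnk, and Ifng, Ifne, Ifna12 and Ifna13 were at background in all groups. Ifnb1 read 23.5, 29.8 and 26.4 in wild type and 15.9, 14.9 and 32.9 in floxed cells with the drug, groups that overlapped (adjusted p = 0.399). Ifnb1 (adjusted p = 0.00171) and Ifnk (adjusted p = 0.0446) were higher in cultured wild type basophils without the drug than in mast cells. Ifnb1 (adjusted p = 0.0321), Ifnk (adjusted p = 0.0133) and Ifne (adjusted p = 0.0285) were lower in fresh than in cultured cells. In each of these the lower group was at background, and for Ifne both groups were. Ifnk differed at least 1.15-fold, and Ifnb1 and Ifne have no fold. In wild type cells Ifnk was also lower with the drug than without it (adjusted p = 0.0362, at least 1.15-fold). Ifne was lower in fresh basophils than in mast cells (adjusted p = 0.0161), with both groups at background.

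Receptors and kinases of the pathway were mixed. Of 10 measured receptor, JAK and STAT genes, 6 were lower and 1 higher in floxed cells with the drug, and 1 lower and none higher without it. One of the 6 was at background in both groups. These and the next counts stand beside 14.9% of all probes lower and 15.9% higher with the drug (27.1% and 31% of the brighter ones), and 7.27% and 8.54% without it (14.5% and 17.3%). With the drug the interferon gamma receptor chain Ifngr2 (-0.96 ± 0.080), Jak2 (-0.91 ± 0.079) and Ifngr1 (-0.84 ± 0.10) led, and without it Ifnlr1 passed (adjusted p = 0.014) at wild type values of 28.4, 23.7 and 14.2 and with floxed cells at background, so it has no fold. The type I receptor chain Ifnar1 read 109.6, 115 and 111 in wild type and 79.0, 79.3 and 86.6 in floxed cells with the drug. Of 6 other interferon regulatory factors, Irf4 (-1.32 ± 0.15), Irf8 (-1.07 ± 0.17) and Irf5 (-0.83 ± 0.076) were lower with the drug, and without it the 1 call, Irf2, had both groups at background.

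Of 13 upstream sensors and adaptors, 6 were lower and 1 higher with the drug, and 4 lower and 1 higher without it, 1 of the 4 at background in both groups. The endosomal trafficking gene Unc93b1 (-1.08 ± 0.090 with the drug, -0.43 ± 0.090 without) and the RNA receptor Tlr7 (-1.07 ± 0.14 and -0.94 ± 0.14) led. Tlr7 was at background in floxed cells without the drug, where its intensity without the offset was at least 2.22-fold lower. Of 10 negative regulators, 4 were lower and 3 higher with the drug and 3 lower and 1 higher without it. Samhd1, a dNTP hydrolase, was lower in both (-1.40 ± 0.084 and -1.29 ± 0.084), Trex1 was lower without the drug (-1.01 ± 0.095), and Ptpn2, a phosphatase of JAKs and STATs, was higher with it (1.04 ± 0.12).

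Genes best known as targets of interferon gamma were mostly lower in floxed cells. Of 11 measured, 10 were lower and none higher with the drug (median -1.57), and 8 were lower and none higher without it (median -1.13). The GTPases Iigp1 (-2.11 ± 0.12 with the drug, -1.47 ± 0.12 without), Gbp3 (-1.92 ± 0.087 and -1.54 ± 0.087) and Igtp (-1.90 ± 0.072 and -1.66 ± 0.072) led. Igtp read 3249.6, 3246 and 3043 in wild type and 833, 848 and 839.8 in floxed cells with the drug, with no overlap. Cxcl9, a chemokine induced by interferon gamma, was at background in mast cells and all cultured groups and read 517, 561 and 554 in fresh basophils (at least 18.1-fold higher than in mast cells, adjusted p = 2.06e-13).

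Markers of other cells moved with some of these comparisons. Counts of markers lower or higher in floxed cells, here and below, stand beside 14.9% and 15.9% of all probes with the drug. Without it those shares were 7.27% and 8.54%. Of the brighter probes they were 27.1% and 31% with the drug and 14.5% and 17.3% without it. In cultured cells the 10 measured monocyte and macrophage markers summed to 12647 to 15468 in wild type and 9063 to 10969 in floxed cells. In floxed cells 9 of 10 were lower and 1 higher both with and without the drug, with Fcgr1 at background in all 4 groups. The higher marker was not the same one. Adgre1 was higher in floxed cells without the drug (means of 6139 against 3382 in wild type) and lower with it (1636 against 3761). The 10 neutrophil markers summed to 13372 to 26973 in wild type and 3273 to 8604 in floxed cells. S100a8 was at background in all 4 groups, and Ngp and Elane also were in floxed cells with the drug. In floxed cells 8 and 6 of the 10 were lower, and 1 higher, with and without the drug. The 6 measured plasmacytoid dendritic cell markers, of a cell that makes much interferon, summed to 265 to 347 in wild type and 213 to 250 in floxed cells; Siglech was at background in every group, Spib fell (-1.54 ± 0.22 with the drug and -0.92 ± 0.22 without) and Tcf4 rose (0.44 ± 0.095 and 0.38 ± 0.095). The 6 measured T and NK cell markers, of cells that make interferon gamma, summed to 1276 to 1424 in wild type and 1184 to 1368 in floxed cells with the drug, and to 3530.0 to 3752 and 464 to 524 without it; Ncr1, Klrd1 and, in 3 of the 4 groups, Cd3d were at background, and 1 of the 6 was lower in each comparison. Gzma carried most of these sums, at group means of 1204 and 1194 with the drug and 3517 and 376 without it. It was the lower gene only in the comparison without the drug. Their part in the result was not tested, and fewer cells of a type and less RNA per cell cannot be told apart in these bulk samples.

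With the drug the 5 mast cell markers summed to 112321 to 118295 in floxed and 81567 to 82749 in wild type cells, with 4 of 5 higher. Without it they summed to 74340 to 74895 and 75673 to 78363, with 3 of 5 lower. Cpa3 carried 62411 to 65471 of each sum in every group, so the sums understate the other markers. With the drug Tpsb2 had means of 8839 in floxed and 633 in wild type cells, and Kit 13556 and 4747. Between fresh and cultured cells the neutrophil sum was 97480 to 100849 in fresh basophils, 24607 to 26973 in cultured wild type cells without the drug and 675 to 717 in mast cells. Monocyte and macrophage sums were 17552 to 19664, 12647 to 14383 and 18241 to 20959 in the same order, with C1qa, C1qb, Csf1r, Mrc1, Fcgr1 and Cd14 at background in mast cells. Cx3cr1 carried the mast cell sum (a mean of 18693, against 1331 in fresh basophils). In fresh basophils 9 of the 10 markers were higher and 1 lower than in mast cells. Of all probes 18.3% were higher and 22.3% lower there, and of the brighter ones 31.8% and 36.2%. The T and NK cell sum was 169.5 to 183 in fresh basophils and 3530.0 to 3752 in cultured wild type cells without the drug. Of its markers 1 was higher and 2 were lower in fresh than in those cultured cells. Of the mast cell markers 4 of 5 were lower in fresh cells and none was higher. Of the neutrophil markers 7 were higher and 1 was lower. These counts stand beside 17.6% of all probes higher and 17.3% lower (31.5% and 33.9% of the brighter ones). The part of these markers in those comparisons was not tested.

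Finally, the sizes of the differences were set beside the promoter letters. The 10 genes with the response element core had a median genotype difference of -0.99 with the drug (from -4.55 for Ifit1 to 0.60 for Oas3) and -1.31 without it, the 15 genes whose windows lacked it -1.14 and -1.10, and the 12 genes with no promoter entry -1.89 and -2.21. Isg15, with 3 cores, and Ifit1, with 2 in the stretch shown above, were among the lowest. Bst2, also with 2, fell by less than the median of the 10 genes, while Rsad2, with 1, fell more than Isg15. Oas3, with 1, was higher with the drug, and Cmpk2, Ifit2, Irf7 and Oasl1 fell without a core in their windows.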

How the data were processed

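Total RNA was isolated with Trizol and RNeasy and labelled with a cyanine dye, per the labels' protocols. The authors deposited linear intensity values for 26423 probes on 18 arrays. Values below 0 occur, so background had been subtracted; the sources used here do not give the scanner software or any earlier normalization. The platform annotation named 1 gene for 21876 probes and none for 4547. After quantile normalization and an offset of 16, log2 values went into 1 limma fit (version 3.58.1, R 4.3.3) of 6 group means with 8 two-sided comparisons. Folds on this scale understate changes of dim genes.

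The genes, lists, tests and alternatives were chosen with earlier results of these data known. Every array's value is given for the 10 called genes with the largest difference in floxed against wild type cells with the drug, 6 in fresh basophils against mast cells and against cultured cells, 4 elsewhere, and Irf7, Irf9 and Stat2. Oas2, Ifi27, Ifih1, Mx2, Ifnb1, Ifnar1, Igtp, Cxcl9, Ifnlr1, the marker genes named and Oas3 outside its drug comparisons were added after their values were seen. No arrays held identical values. Alternatives were 3 scalings, an offset of 50, leaving out the dimmest 30% of probes, a replicate block, averaged probes, fewer groups and left-out arrays; counts without Mx2 were added later. Scripts were tested on simulated data.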

Additional observations from a re-analysis of the deposited data

Results flagged for a closer look

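The genotype difference of 7 interferon-stimulated genes differed between cells with and without the drug by the test of the interaction itself (limma, adjusted over 26423 probes). Ifi27l2a changed by -1.45 on the log2 scale, Dhx58 by -0.79, Oasl2 by -0.57, Herc6 by -0.45 and Cmpk2 by -0.40, so their genotype gap was wider with the drug. Cxcl10 changed by 1.25 and Oas3 by 0.93. The gap of Cxcl10 was narrower with the drug. That of Oas3 passed with the drug only in the fit reported here (0.60 with it and -0.34, adjusted p = 0.0592, without). Without the drug Oas3 passed as lower in 6 of 14 other settings. The number of genes called was not above the share among brighter probes given above. In groups of 3 arrays no test for a single array that stands apart was run; the values of Mx2 are given above.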

How the results depend on the processing

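Of 236 recomputed counts of called genes, 215 were within 1.5 times the value reported, and of 808 recomputed results of the genes named by rule 788 kept their side of the threshold, 8 no longer passed (Dhx58 and Irf9), 12 newly passed (Oas3 and Stat2) and 0 calls turned their direction. Mx2, which did not pass, lay between -1.47 and 1.13 with left-out arrays for floxed against wild type cells with the drug. Over all 37 genes and 8 comparisons, 168 of 201 calls held in every setting; of the 33 lost in some setting 1 (Ifih1) was in floxed against wild type cells with the drug, 0 without it, 8 in each drug effect, 4 in the interaction, 8 in fresh basophils against mast cells, 3 against cultured cells and 1 in cultured cells against mast cells. Of these calls 2 turned their sign under a scaling (Ifi35 and Parp9, as given above). With left-out arrays the genes lower in floxed cells numbered 32 to 33 with the drug and 33 to 35 without it, and other settings gave the same ranges. The count of genes higher in floxed cells with the drug went from 1 to 2 without normalization between arrays, and lay between 1 and 2 with left-out arrays (2 without replicate 1 of wild type with the drug). Without normalization between arrays the drug in wild type cells raised 4 genes and lowered 15, the interaction called 4 higher and 1 lower, and 3 genes were lower in fresh basophils than in mast cells. When arrays were scaled on probes above background the same counts were 2, 18, 5, 1 and 3. Median scaling gave 4 genes lowered by the drug in wild type cells, 3 raised in floxed cells and 2 lower by the interaction. Fitting only the groups compared gave 2 lower by the interaction, and left-out arrays 2 to 7. The median of the 37 genes for the drug in wild type cells was -0.24 without normalization and -0.31 on that scale, and for the interaction 0.19 and 0.26, while these 2 scalings and median scaling moved the median of all probes by -0.15 to 0.20. For these changes the cause was not tested.

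Over 45 pairs of same-numbered arrays the deviations from the group means had a correlation of -0.38 to 0.16, with 9 above 0.1. Differently numbered arrays were not set beside them, so these values do not show whether replicate numbers pair the samples. With the replicate block 33 genes were lower in floxed cells with the drug and 33 without it, and the interaction called 2 higher and 4 lower. Counting 36 genes without Mx2, a choice made after seeing the data, gave the same numbers called, with medians of -1.46 and -1.30 for floxed against wild type cells with and without the drug. A group at background, as for Ifih1 in floxed and mast cells and Mx1 in mast cells and in floxed cells without the drug, limits the fold to a bound or to none.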
